A study of Mus musculus with 10 samples.

Results

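Colon RNA of mice that received aspirin (ASA) and curcumin (CUR) together after azoxymethane (AOM) and dextran sodium sulphate (DSS) was set against colon RNA of AOM/DSS mice on the plain diet. The members were the libraries labelled ASA+CUR (2 libraries) and those labelled Model (2 libraries), which make 4 of the 10 libraries in the series. Their transcript FPKM values (fragments scaled for transcript length and for library size) were summed per gene. ASA+CUR mice were C57BL/6 mice that received 10 mg/kg AOM under the skin at 6 weeks of age, 1.2% DSS in the drinking water for 7 days, and AIN-93M diet with 0.01% ASA and 1% CUR. Model mice differed from them in the labels by the AIN-93M diet alone. The ASA mice (2 libraries, 0.02% ASA) and the CUR mice (2 libraries, 2% CUR) received the same AOM and DSS, each agent at a higher dose than in the mixed diet, and the Control mice (2 libraries) received saline and plain diet. The labels name the AOM/DSS tissue as tumour, whereas the protocol describes the colon that was left after the proximal end and palpable tumours had been taken away, so the tumour content of each piece is not known. The labels do not tie replicate libraries to single animals, so whether they are separate mice is not known. Within a group they could differ widely, as Krt5 did in ASA+CUR at 211.5 and 0.066 FPKM.

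AOM is a carcinogen that alkylates DNA in the colon, and DSS injures the epithelium, so that the pair gives tumours on a background of colitis. Aspirin acetylates the cyclooxygenases, which make the precursor of the prostaglandins, and curcumin is a turmeric polyphenol studied for its action on NF-kB, Nrf2 and the enzymes that modify DNA and histones. The colon epithelium renews itself from Wnt-driven stem cells and matures into absorptive, goblet, enteroendocrine and tuft cells. Paneth cells, which make lysozyme and alpha-defensins, belong to the small intestine and appear in the colon of inflamed or tumour-bearing gut. The homeobox genes Hoxd10 to Hoxd13 and Hoxb13 mark the hindmost gut, while Cdx2 is a master gene of intestinal epithelium.

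All 10 libraries carried high levels of the colon epithelial markers Epcam, Cdh1, Krt8 and Vil1, with Epcam at 793 and 761 FPKM in ASA+CUR and 924 and 746 FPKM in Model. The pancreatic markers Cpb1, Pnlip and Try4 stayed under 1 FPKM in every library, and Try4 was at 0 in all of them. Summed FPKM per library lay between 515959 and 720895. The correlation of log2(FPKM + 1) across genes was 0.977 between the ASA+CUR libraries and 0.964 between the Model libraries, and ASA+CUR replicate 0 was closest to ASA replicate 0 (0.986).

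Only 2 of 14061 genes tested, or 0.0142%, differed between ASA+CUR and Model at an adjusted p under 0.05 (limma, Benjamini-Hochberg). One was Hba-a2, a gene for the alpha chain of haemoglobin, with 9.22 and 18.1 FPKM in ASA+CUR, 30.0 and 17.3 in ASA, 0.0365 and 0.0354 in CUR, 0.0361 and 0.0358 in Model and 0.0357 and 0.0353 in Control (log2 change 3.75 ± 0.33 SE, adjusted p = 0.0258). It shares nearly all of its sequence with Hba-a1, which was at 15.5 and 173 FPKM in ASA+CUR and 26.4 and 85.4 FPKM in Model. The sum over both copies was 24.8 and 190.8 FPKM in ASA+CUR, against 26.5 and 85.5 FPKM in Model, and the groups overlapped in it, so that the call on Hba-a2 alone is uncertain. The other was a transcript listed as NM_010039, for which neither the table nor the annotation used gives a gene name. It was listed at 0 in both ASA+CUR libraries and in the 6 ASA, CUR and Control libraries, and at 14.2 and 6.81 FPKM in Model (log2 change -3.44 ± 0.29, adjusted p = 0.0258). It entered the test through the Model libraries alone. Both standard errors come from a spread shared over all 5 groups. Groups at 0 (NM_010039) or between 0.0353 and 0.0365 FPKM (Hba-a2) add almost no spread, so these errors may be too small for the expressed libraries. Neither call held throughout: Hba-a2 was not called when any 1 of the 4 libraries was left out, NM_010039 was not called without either ASA+CUR library, and neither was called with Control left out or with the replicate number as a block.

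Without adjustment, 1416 genes had a p under 0.05: 645 higher in ASA+CUR (4.59% of the genes tested) and 771 lower (5.48%). With 2 libraries a side, 3490 genes had both ASA+CUR libraries above both Model libraries (24.8%) and 3571 had both below (25.4%). Of these, 217 were at least 2-fold higher on the log2(FPKM + 1) scale (1.54%) and 354 at least 2-fold lower (2.52%). The counts for gene groups given from here on are to be read against these shares. In these counts, higher and lower refer to genes without overlap, and the genes not counted overlapped between the groups. Where leaving out 1 library moved a group's median by over 1.5 times, the lowest and highest medians without 1 library are given beside it. The median log2 change of all genes tested was -0.018.

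**Figure D1:**
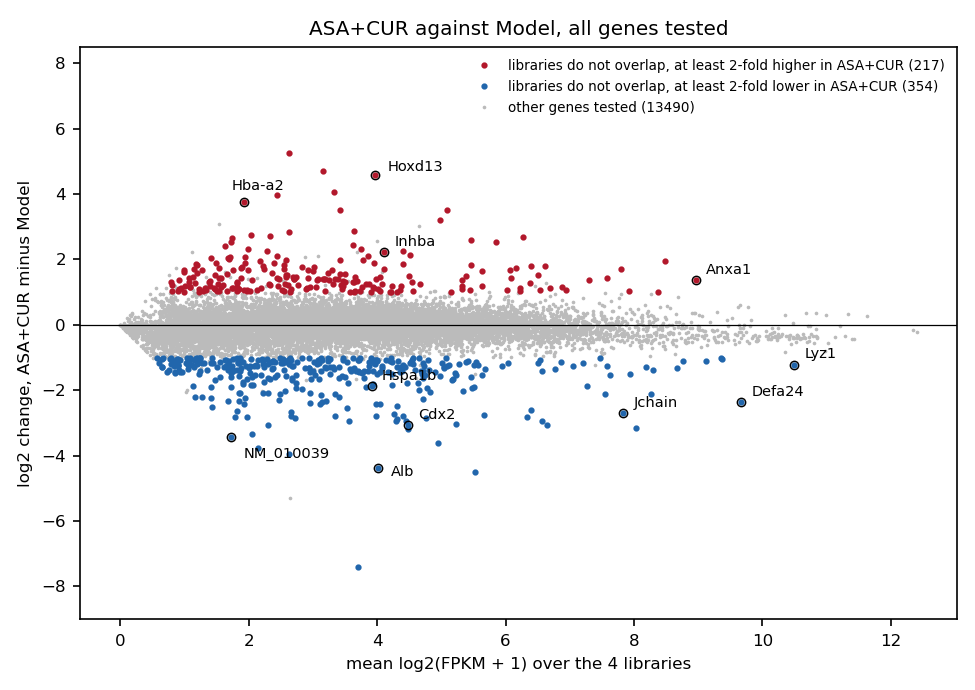
Each point is 1 of the 14061 genes tested, with the mean log2(FPKM + 1) of the 4 libraries on the horizontal axis and the log2 change of ASA+CUR minus Model on the vertical axis. Red points are the 217 genes at least 2-fold higher and blue points the 354 genes at least 2-fold lower with libraries that do not overlap; grey points are all others, and circled genes are named in the text.

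Of the 20 genes with a symbol and the smallest p, Hba-a2 alone passed the adjusted threshold. Alb, the gene for albumin, was at 2.71 and 2.43 FPKM in ASA+CUR, against 46.9 and 112 FPKM in Model (log2 change -4.37 ± 0.57, adjusted p = 0.124). It stood at 6.03 and 23.4 FPKM in ASA, 10.5 and 10.8 in CUR and 0.696 and 1.12 in Control, so the AOM/DSS libraries without ASA+CUR were all above both ASA+CUR libraries. Xlr3a, of a family of near-identical X-linked lymphocyte-regulated genes and for that reason uncertain, was at 6.41 and 5.90 FPKM in ASA+CUR, against 0.616 and 0.133 FPKM in Model, and the ASA and CUR libraries lay at 0.403 and 0.0889 and 1.11 and 0.337 FPKM. Trex2, a 3′ exonuclease known from skin keratinocytes, was at 5.35 and 4.79 FPKM in ASA+CUR, against 1.08 and 0.703 FPKM in Model (log2 change 1.69 ± 0.22, adjusted p = 0.124). Bpifb5, of a family of secreted lipid-binding proteins, was at 6.74 and 8.83 FPKM in ASA+CUR, against 1.28 and 1.70 FPKM in Model. Trex2, Bpifb5 and Xlr3a were higher in both ASA+CUR libraries than in all 8 others. Arhgap40 (3.84 and 3.60 FPKM in ASA+CUR and 0.872 and 0.459 FPKM in Model), Serpinb8 (4.13 and 3.42 FPKM in ASA+CUR and 0.738 and 0.788 FPKM in Model), Dusp9, a phosphatase of MAP kinases (4.32 and 4.70 FPKM in ASA+CUR and 1.51 and 1.01 FPKM in Model), Nectin4, an adhesion protein of epithelia (16.9 and 17.0 FPKM in ASA+CUR and 6.69 and 5.68 FPKM in Model), and Ttc9 (13.7 and 18.8 FPKM in ASA+CUR and 6.06 and 4.77 FPKM in Model) had the same order.

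Apart from Alb, the lower genes of the same set were higher in both Control libraries than in both Model libraries. Gcg, which encodes proglucagon and is made by enteroendocrine L cells, was at 3.78 and 3.95 FPKM in ASA+CUR, against 12.8 and 9.75 FPKM in Model (log2 change -1.32 ± 0.18, adjusted p = 0.124). Pcsk1, which cuts prohormones, was at 0.824 and 0.826 FPKM in ASA+CUR, against 3.53 and 3.35 FPKM in Model. Slc12a8, a transporter, was at 7.45 and 6.94 FPKM in ASA+CUR, against 22.8 and 20.8 FPKM in Model. Galnt10, which starts O-linked glycans, was at 13.2 and 12.5 FPKM in ASA+CUR, against 31.5 and 34.1 FPKM in Model. In Control, Gcg was at 112 and 103 FPKM and Slc12a8 at 63.8 and 56.1 FPKM. Tpsg1, a transmembrane tryptase, was at 5.35 and 5.66 FPKM in ASA+CUR and 16.4 and 21.1 FPKM in Model. Tmem171 was at 17.1 and 13.3 FPKM in ASA+CUR and 30.2 and 36.4 FPKM in Model. Pde2a, a phosphodiesterase of cyclic nucleotides, was at 9.98 and 10.1 FPKM in ASA+CUR and 20.0 and 24.7 FPKM in Model. Hpd, of tyrosine breakdown, was at 7.29 and 3.89 FPKM in ASA+CUR and 17.0 and 18.5 FPKM in Model. Elapor1 was at 8.39 and 8.54 FPKM in ASA+CUR and 26.3 and 25.4 FPKM in Model. Rsrp1 was at 71.8 and 74.7 FPKM in ASA+CUR, against 133 and 131 FPKM in Model, and the CUR and Control libraries were near Model for this gene, at 141 and 135 and 138 and 152 FPKM.

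Several genes of position along the gut stood far apart between the groups. Hoxd13 was at 87.7 and 65.2 FPKM in ASA+CUR, against 8.35 and 0.0850 FPKM in Model (log2 change 4.59 ± 2.33, adjusted p = 0.518). The single-agent libraries lay on either side, with 75.7 and 0.0566 FPKM in ASA and 0.0323 and 71.6 FPKM in CUR. Hoxd12 (19.1 and 22.0 FPKM in ASA+CUR and 0.855 and 0 FPKM in Model), Hoxd11 (6.61 and 8.11 FPKM in ASA+CUR and 0.777 and 0 FPKM in Model) and Hoxd10 (9.73 and 9.73 FPKM in ASA+CUR and 0.682 and 0.487 FPKM in Model) were ordered like Hoxd13: high in both ASA+CUR libraries, in ASA replicate 0 and in CUR replicate 1, and low in the rest. Cdx2 ran the other way, at 6.34 and 7.05 FPKM in ASA+CUR, against 64.1 and 62.8 FPKM in Model (log2 change -3.07 ± 1.19), with 5.22 and 61.1 FPKM in ASA, 126 and 11.4 in CUR and 139 and 124 in Control. Hoxa11 was at 3.21 and 3.64 FPKM in ASA+CUR, against 12.1 and 14.0 FPKM in Model. Hoxb13 was at 180.3 and 183 FPKM in ASA+CUR, against 94.7 and 27.9 FPKM in Model.

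None of the 13 position genes tested passed the adjusted threshold; 5 were higher and 4 lower without overlap, and their median log2 change was -0.017 (-0.30 without Model replicate 1 and 0.089 without ASA+CUR replicate 1). Other position genes overlapped, such as Hoxa13 (14.4 and 14.2 FPKM in ASA+CUR and 12.6 and 14.3 FPKM in Model). The 2 Model libraries themselves differed, replicate 0 having 8.35 FPKM of Hoxd13 and replicate 1 having 0.0850 FPKM. Genes of largest change, chosen after their values were seen, were split in the same way. B4galnt2, a glycosyltransferase of gut epithelium, was at 8.99 and 6.83 FPKM in ASA+CUR, against 113 and 103 FPKM in Model, with 8.52 and 142 FPKM in ASA and 122 and 44.0 FPKM in CUR. The uncharacterised gene 1810065E05Rik was at 10.5 and 7.26 FPKM in ASA+CUR, against 169.7 and 279 FPKM in Model, with 19.1 and 228 and 692 and 26.5 FPKM in ASA and CUR. On the higher side, Klk15, a kallikrein, was at 39.0 and 50.9 FPKM in ASA+CUR, against 1.99 and 0 FPKM in Model. Mettl7a3 was at 35.3 and 35.2 FPKM in ASA+CUR, against 4.28 and 0.928 FPKM in Model; ASA replicate 0 exceeded ASA replicate 1 in both, and CUR replicate 1 exceeded CUR replicate 0. The small nucleolar RNA Snora15 had the lowest change of all and was not split in that way. It was listed at 0 in both ASA+CUR libraries and in 3 of the 4 single-agent libraries, and at 223 and 127 FPKM in Model. FPKM are scaled for transcript length, so the values of so short an RNA are uncertain. The labels give no finer position for each piece, and the part of position in the results that follow was not tested.

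**Figure D2:**
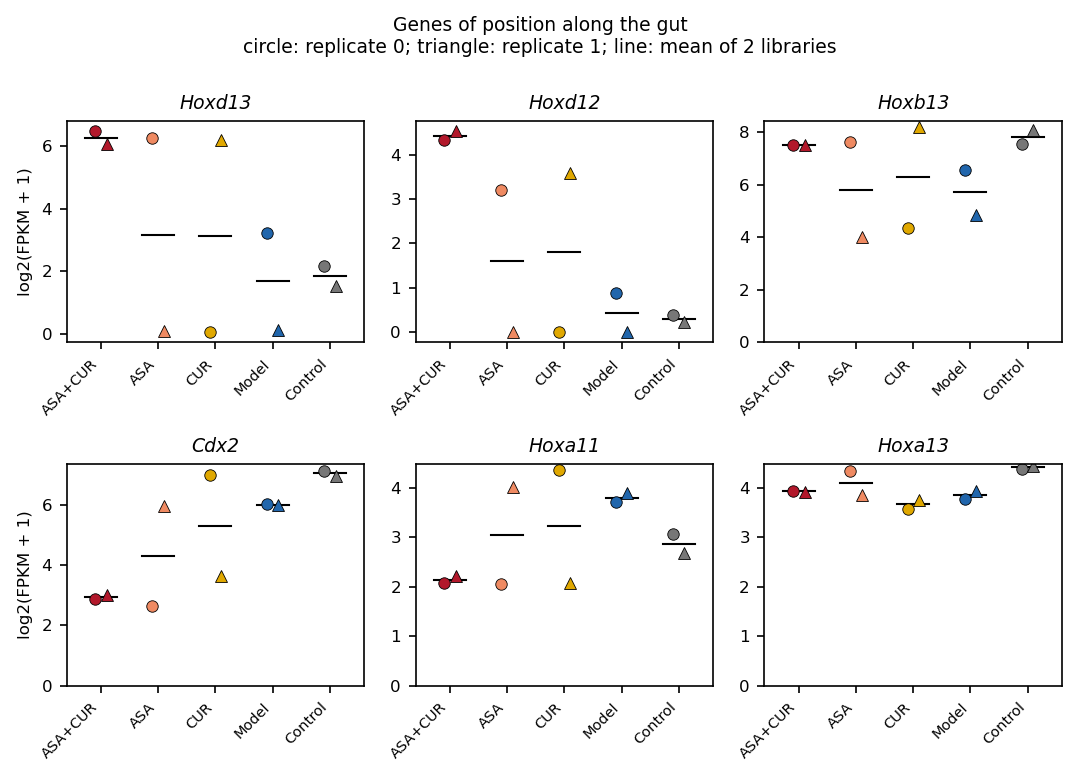
Log2(FPKM + 1) of 6 position genes in each library, by group from ASA+CUR to Control, with circles for replicate 0, triangles for replicate 1 and a line at the mean of 2 libraries. Hoxd13 and Hoxd12 were high and Cdx2 and Hoxa11 low in both ASA+CUR libraries, in ASA replicate 0 and in CUR replicate 1, while Hoxa13 overlapped between ASA+CUR and Model.

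Paneth and antimicrobial genes were among the lists with the lowest medians. Of 27 tested, 19 were lower in both ASA+CUR libraries and 0 higher. At least 2-fold lower were 17, and the median log2 change was -1.22. Alpha-defensin copies count as separate members here, so the counts and the median partly repeat the same signal. Lyz1, lysozyme of Paneth cells, was at 897 and 989.8 FPKM in ASA+CUR, against 1746 and 2760.2 FPKM in Model (log2 change -1.22 ± 0.28, adjusted p = 0.323). It was at 1021 and 1602 FPKM in ASA, 1245 and 1193 in CUR and 7.24 and 6.48 in Control. The alpha-defensins are near-identical copies among which reads can be split in any way, so their sum is the safer measure: over 28 rows it was 418.6 and 915.1 FPKM in ASA+CUR, 237.4 and 2302 FPKM in ASA, 723.7 and 1446 FPKM in CUR, 3400 and 4705 FPKM in Model, and 0 in both Control libraries. The Model mean was 6.08 times the ASA+CUR mean. Single members, each uncertain for that reason, had the same order: Defa24 was at 254 and 502 FPKM in ASA+CUR and 1650.1 and 2048 FPKM in Model. Defa30 was at 49.6 and 151 FPKM in ASA+CUR and 611 and 1011 FPKM in Model. Defa17 was at 8.21 and 17.5 FPKM in ASA+CUR and 151 and 75.4 FPKM in Model.

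Other antimicrobial genes were lower as well. Nos2, which makes nitric oxide, was at 3.94 and 2.11 FPKM in ASA+CUR, against 12.1 and 8.76 FPKM in Model (log2 change -1.53 ± 0.44, adjusted p = 0.422), whereas the ASA libraries had 23.6 and 16.7 FPKM. Pigr, which carries IgA across the epithelium, was at 301 and 124 FPKM in ASA+CUR, against 516 and 494 FPKM in Model. Mmp7, the protease that activates alpha-defensins in the mouse, was at 220.0 and 347 FPKM in ASA+CUR, against 475 and 403 FPKM in Model. Duox2, an epithelial oxidase, was at 20.4 and 25.5 FPKM in ASA+CUR, against 55.0 and 34.1 FPKM in Model. For none of these genes did the groups overlap.

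Most genes of goblet cells, which make the mucus layer, were lower in ASA+CUR than in Model. Of 16 goblet cell genes tested, 14 were lower in both ASA+CUR libraries and 1 higher (median log2 change -0.83). The trefoil peptide gene Tff3 was at 944 and 999 FPKM in ASA+CUR, against 1600.5 and 1902 FPKM in Model (log2 change -0.84 ± 0.22, adjusted p = 0.395), with 880.2 and 854 FPKM in ASA and 3027 and 2317 FPKM in CUR. Atoh1, the factor that sets secretory fate, was at 7.12 and 3.97 FPKM in ASA+CUR, against 14.4 and 14.4 FPKM in Model. Spdef, which matures goblet cells, was at 12.5 and 13.4 FPKM in ASA+CUR, against 32.7 and 30.0 FPKM in Model. Klk1, a kallikrein, was at 132 and 116 FPKM in ASA+CUR, against 369 and 234 FPKM in Model. Clca1, of goblet mucus, was at 108 and 59.0 FPKM in ASA+CUR, against 423 and 205 FPKM in Model. Agr2, a disulphide isomerase needed for mucin folding, was at 428 and 500.3 FPKM in ASA+CUR, against 1028 and 885 FPKM in Model. The goblet median stayed between -0.89 and -0.80 when any 1 of the 4 libraries was left out.

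Absorptive genes were lower without overlap in 10 of 24 tested and higher in 1. Their median was -0.54 (-1.03 without ASA+CUR replicate 0 and -0.14 without Model replicate 0). Car2, a carbonic anhydrase, was at 117 and 60.9 FPKM in ASA+CUR, against 182 and 227 FPKM in Model. Saa1, serum amyloid A, was at 336 and 197 FPKM in ASA+CUR, against 939 and 442 FPKM in Model. Prap1 was at 0 and 0.455 FPKM in ASA+CUR, against 18.3 and 12.9 FPKM in Model. Guca2a, which encodes guanylin, was at 163 and 128 FPKM in ASA+CUR, against 404 and 422 FPKM in Model, with 130.1 and 217 FPKM in ASA and 2017 and 283 in CUR. Fabp2, a fatty acid carrier of enterocytes, was at 7.83 and 5.18 FPKM in ASA+CUR, against 69.4 and 62.5 FPKM in Model (log2 change -3.18 ± 1.26), with 10.5 and 40.9 FPKM in ASA, 412 and 16.5 in CUR and 738 and 445 in Control. In Fabp2 the libraries low in Cdx2, which include ASA replicate 0 and CUR replicate 1, were the low ones.

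Enzymes of drug and steroid metabolism followed. Of 29 conjugating enzymes and cytochrome P450s tested, 13 were lower without overlap and 1 higher (median -0.41; -0.94 without ASA+CUR replicate 0 and 0.049 without ASA+CUR replicate 1). Cyp4f14, a fatty acid hydroxylase, was at 5.62 and 2.66 FPKM in ASA+CUR, against 22.9 and 20.8 FPKM in Model (log2 change -2.21 ± 0.49). Cyp4f40 was at 8.45 and 8.20 FPKM in ASA+CUR, against 29.7 and 19.2 FPKM in Model. Cyp2d34 was at 21.4 and 13.0 FPKM in ASA+CUR, against 34.6 and 34.4 FPKM in Model. Carboxylesterases, which hydrolyse esters such as aspirin, were mixed, with 6 lower and 4 higher of 11 tested (median -0.36; -0.65 without ASA+CUR replicate 0 and -0.36 without ASA+CUR replicate 1). Ces2e was at 15.1 and 8.80 FPKM in ASA+CUR, against 53.7 and 44.7 FPKM in Model (log2 change -1.99 ± 0.41). Ces2c was at 7.07 and 3.83 FPKM in ASA+CUR, against 11.9 and 9.05 FPKM in Model. Ces1d was at 5.26 and 1.68 FPKM in ASA+CUR, against 7.01 and 9.83 FPKM in Model. Ces1g was at 8.47 and 8.18 FPKM in ASA+CUR, against 7.40 and 5.66 FPKM in Model. The members of this family lie in clusters of similar copies.

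Among 28 tested genes of PPAR targets, ketogenesis and fatty acid oxidation, 14 were lower without overlap and 3 higher (median -0.24; -0.31 without ASA+CUR replicate 0 and -0.13 without ASA+CUR replicate 1). The thioesterase Acot1, which frees fatty acids from coenzyme A, was at 2.05 and 3.24 FPKM in ASA+CUR, against 12.6 and 10.1 FPKM in Model. Oxidative phosphorylation genes were lower without overlap in 16 of 30 and higher in 0, by little (median -0.26; -0.40 without Model replicate 1 and -0.093 without Model replicate 0; 0 at least 2-fold lower). Ndufa1 was at 149 and 143 FPKM in ASA+CUR and 194 and 201 FPKM in Model. Ndufs3 was at 106 and 102 FPKM in ASA+CUR and 139 and 124 FPKM in Model. Sdhc was at 122 and 120.4 FPKM in ASA+CUR and 161 and 142 FPKM in Model. Enteroendocrine genes were lower without overlap in 8 of 16 and higher in 2. Their median was -0.34 (-0.39 without ASA+CUR replicate 0 and -0.18 without Model replicate 0). The lower ones included Gcg and Cpe, which trims prohormones (12.1 and 10.6 FPKM in ASA+CUR and 22.6 and 21.5 FPKM in Model), and the higher ones were Nts, neurotensin (4.28 and 4.002 FPKM in ASA+CUR and 1.29 and 1.57 FPKM in Model), and Pyy, peptide YY (200.03 and 36.9 FPKM in ASA+CUR and 35.3 and 20.8 FPKM in Model). Tuft cell genes were lower without overlap in 7 of 8 and higher in 1, with 0 at least 2-fold lower. Their median was -0.47 (-0.65 without Model replicate 0 and -0.26 without Model replicate 1). Levels were low, with a mean log2(FPKM + 1) of 1.39 and 1.24 in ASA+CUR and 1.57 and 1.75 in Model. Rgs13 was at 0.229 and 0.101 FPKM in ASA+CUR and 0.539 and 1.19 FPKM in Model. Avil was the higher one, at 35.1 and 36.3 FPKM in ASA+CUR and 30.3 and 15.8 FPKM in Model. With Avil included, the summed FPKM of the list was higher in ASA+CUR (43.6 and 42.6) than in Model (41.1 and 33.7).

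Not all epithelial transport genes were lower. Of 15 genes of aldosterone-responsive distal transport, 6 were higher without overlap and 2 lower (median 0.37; 0.045 without ASA+CUR replicate 0 and 0.39 without Model replicate 0). Scnn1g, a subunit of the epithelial sodium channel, was at 3.87 and 2.65 FPKM in ASA+CUR, against 0.741 and 0.562 FPKM in Model. Sgk1, the kinase that keeps that channel at the membrane, was at 61.8 and 43.5 FPKM in ASA+CUR, against 36.2 and 23.3 FPKM in Model. Hsd11b2, which inactivates glucocorticoids, was at 52.1 and 31.6 FPKM in ASA+CUR, against 68.0 and 87.8 FPKM in Model. Scnn1g was also high in CUR replicate 1, one of the libraries high in Hoxd13 (0.373 and 3.99 FPKM in CUR replicates 0 and 1). In ASA replicates 0 and 1 it was at 1.84 and 0.584 FPKM. The higher of these was again the library high in Hoxd13, but it was below both ASA+CUR libraries.

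**Figure D3:**
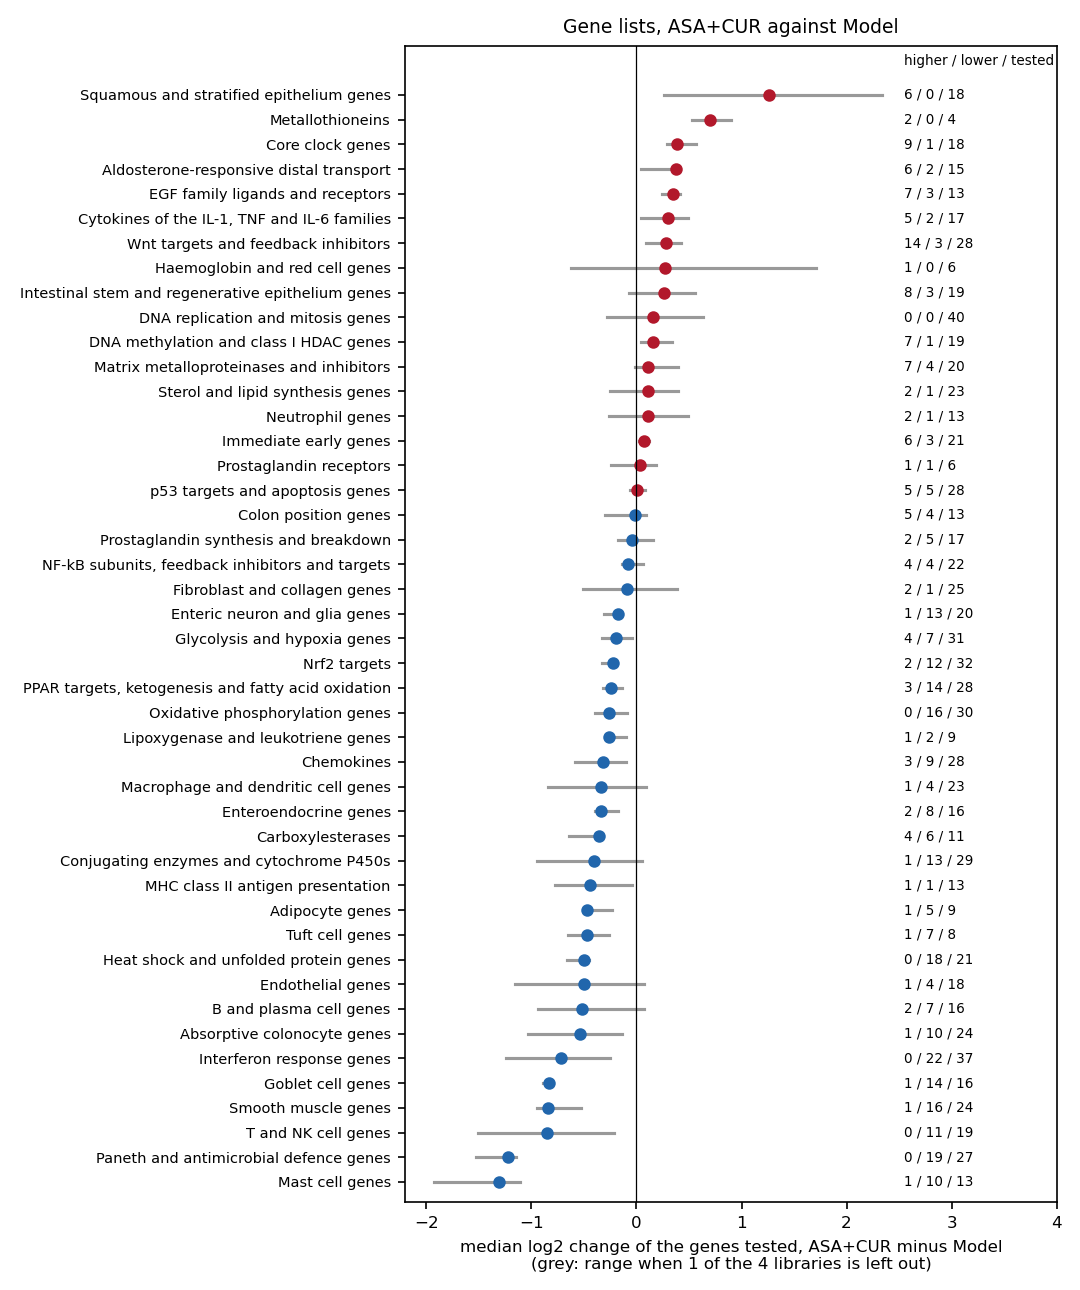
Median log2 change of ASA+CUR minus Model over the tested genes of each of 45 lists, with a grey bar from the lowest to the highest median when 1 of the 4 libraries is left out. The figures on the right count the genes higher and lower without overlap and the genes tested; squamous genes stood highest (1.27) and mast cell genes lowest (-1.30), and DNA replication genes had none without overlap.

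Anxa1, annexin A1, a protein that limits inflammation and aids wound closure, was at 869 and 739 FPKM in ASA+CUR, against 393 and 242 FPKM in Model (log2 change 1.37 ± 0.31, adjusted p = 0.320). It was at 553 and 443 FPKM in ASA, 612 and 358 in CUR and 149 and 152 in Control, so both ASA+CUR libraries were above all 8 others. Of 19 stem and regenerative genes tested, 8 were higher without overlap and 3 lower (median 0.26; -0.074 without ASA+CUR replicate 1 and 0.56 without ASA+CUR replicate 0). Sprr1a was at 54.7 and 123 FPKM in ASA+CUR, against 42.0 and 11.6 FPKM in Model. Hopx was at 109.7 and 93.9 FPKM in ASA+CUR, against 66.4 and 55.8 FPKM in Model. Krt7 was at 397 and 426 FPKM in ASA+CUR, against 313 and 248 FPKM in Model. Lgr5, the receptor that marks crypt stem cells, was at 11.4 and 20.3 FPKM in ASA+CUR and 12.3 and 11.9 FPKM in Model with groups that overlapped, and Lrig1, a brake on EGF receptors, was on the lower side at 14.6 and 17.1 FPKM in ASA+CUR, against 30.9 and 24.5 FPKM in Model.

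Other genes chosen after their values were seen had the same order. Lamb3, a laminin chain of the basement membrane, was at 116 and 152 FPKM in ASA+CUR, against 79.2 and 50.3 FPKM in Model. Itga6, an integrin chain that binds laminin, was at 156 and 147 FPKM in ASA+CUR, against 92.0 and 52.4 FPKM in Model. So had F3, tissue factor (118 and 197 FPKM in ASA+CUR and 58.5 and 47.1 FPKM in Model), Plaur, the urokinase receptor (55.0 and 86.6 FPKM in ASA+CUR and 36.7 and 15.5 FPKM in Model), Anxa8 (347 and 282 FPKM in ASA+CUR and 149 and 88.7 FPKM in Model) and Inhba, the beta A chain of inhibins and activins (27.7 and 47.5 FPKM in ASA+CUR and 7.89 and 6.10 FPKM in Model; log2 change 2.23 ± 0.39, adjusted p = 0.268). For Inhba the ASA libraries were between, at 27.3 and 14.98 FPKM, and the CUR libraries near Model, at 4.24 and 8.26 FPKM.

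Among 18 squamous and stratified epithelium genes tested, 6 were higher without overlap, all of them at least 2-fold, and 0 lower (median 1.27). Krt14, a keratin of basal layers, was at 198 and 95.2 FPKM in ASA+CUR, against 51.7 and 9.97 FPKM in Model (log2 change 2.52 ± 0.74). Dsg3, a desmoglein of stratified epithelium, was at 7.01 and 4.34 FPKM in ASA+CUR, against 1.28 and 0.0830 FPKM in Model. Krt16, a keratin of wounded skin, was at 2.74 and 1.88 FPKM in ASA+CUR, against 0.699 and 0.0471 FPKM in Model. The defining squamous genes Krt5 and Trp63 stood apart in 1 library: Krt5 was at 212 and 0.0662 FPKM in ASA+CUR and 10.3 and 0.130 FPKM in Model. Trp63 was at 5.64 and 0.0867 FPKM in ASA+CUR and 0.401 and 0.0720 FPKM in Model. ASA replicate 0 also held Krt5, the ASA libraries being at 94.5 and 0.0324 FPKM. Without ASA+CUR replicate 0 the list's median was 0.26, and without replicate 1 it was 2.33. The part of anal or other squamous tissue in the values was not tested.

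**Figure D4:**
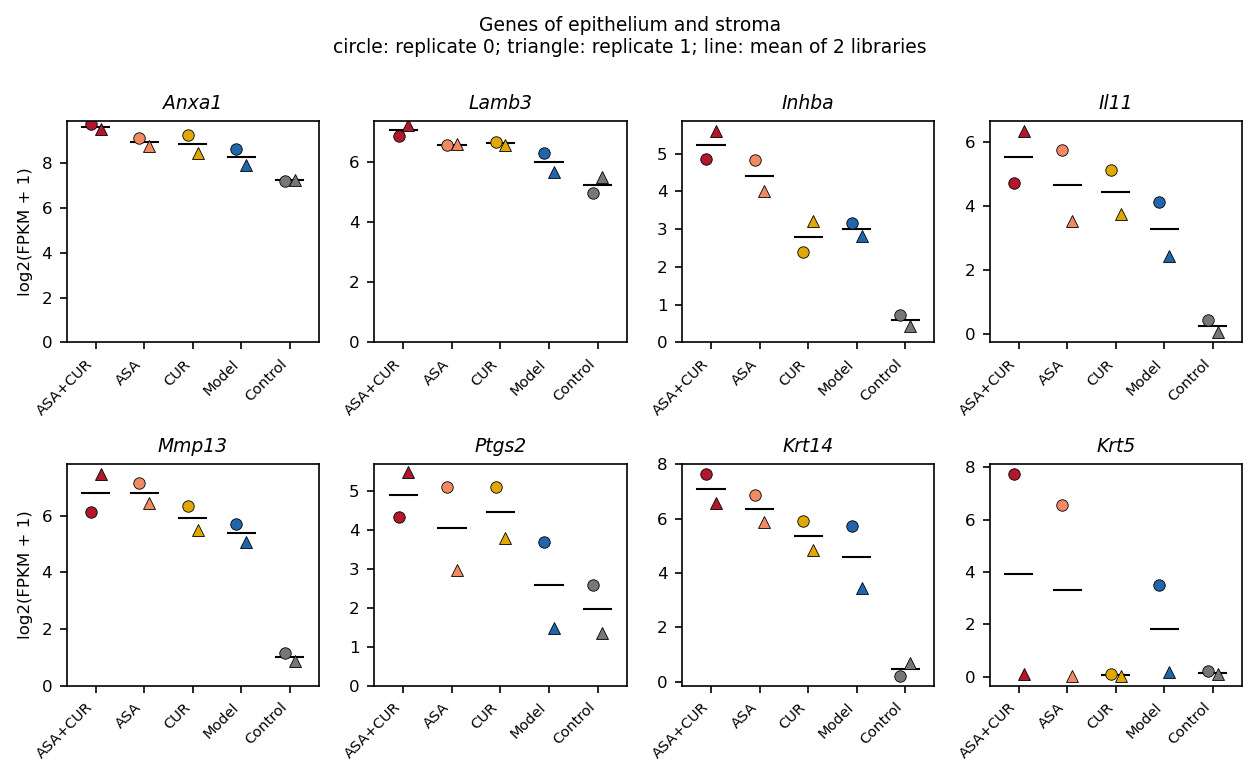
Log2(FPKM + 1) in each library for 8 genes of epithelium and stroma, by group from ASA+CUR to Control, with circles for replicate 0, triangles for replicate 1 and a line at the mean of 2 libraries. Anxa1, Lamb3, Inhba, Il11, Mmp13, Ptgs2 and Krt14 were higher in both ASA+CUR libraries than in both Model libraries, whereas Krt5 was high in ASA+CUR replicate 0 and ASA replicate 0.

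EGF family genes, which drive epithelial growth and repair, were more often higher than lower. Of 13 ligands, receptors and feedback genes tested, 7 were higher without overlap and 3 lower (median 0.35, and 0.24 to 0.41 with 1 library left out). Nrg1, neuregulin 1, was at 10.9 and 16.9 FPKM in ASA+CUR, against 5.87 and 3.36 FPKM in Model (log2 change 1.42 ± 0.40, adjusted p = 0.407). Ereg, epiregulin, was at 29.2 and 53.6 FPKM in ASA+CUR, against 18.0 and 5.46 FPKM in Model, with 40.7 and 6.87 FPKM in ASA and 37.8 and 7.41 in CUR, and Errfi1, a feedback inhibitor of the receptors, at 42.2 and 58.1 FPKM in ASA+CUR, against 28.0 and 20.6 FPKM in Model. The receptor Egfr overlapped, at 13.0 and 18.2 FPKM in ASA+CUR and 17.0 and 12.2 FPKM in Model.

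Wnt targets and feedback inhibitors were higher without overlap in 14 of 28 and lower in 3 (median 0.29; 0.089 without ASA+CUR replicate 1 and 0.42 without ASA+CUR replicate 0). Bambi, a pseudoreceptor of TGF-beta signalling that Wnt induces, was at 14.1 and 9.17 FPKM in ASA+CUR, against 4.84 and 4.28 FPKM in Model (log2 change 1.16 ± 0.29, adjusted p = 0.347). Axin2, the feedback inhibitor most used as a Wnt readout, was at 95.6 and 111 FPKM in ASA+CUR, against 74.4 and 61.3 FPKM in Model (log2 change 0.60 ± 0.31, adjusted p = 0.519), with 65.0 and 77.5 FPKM in ASA, 44.1 and 93.7 in CUR and 13.9 and 13.0 in Control. Dkk2 was at 24.5 and 43.8 FPKM in ASA+CUR, against 21.3 and 11.1 FPKM in Model. Cd44 was at 57.1 and 67.2 FPKM in ASA+CUR, against 41.5 and 39.7 FPKM in Model. Proliferation genes gave no such order: of 40 DNA replication and mitosis genes tested, none had groups without overlap, and Mki67 was at 18.8 and 24.2 FPKM in ASA+CUR and 21.5 and 11.7 FPKM in Model. Their median was 0.16, but -0.28 without Model replicate 1 and 0.63 without Model replicate 0, with Model replicate 0 the higher of the Model libraries in Mki67.

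The prostaglandin genes bear on aspirin's own targets. Ptgs2, the inducible cyclooxygenase, was higher in ASA+CUR, at 19.0 and 43.4 FPKM in ASA+CUR, against 11.9 and 1.81 FPKM in Model (log2 change 2.31 ± 0.94, adjusted p = 0.486). ASA+CUR overlapped both single-agent groups, whose libraries were at 33.2 and 6.82 FPKM in ASA and 33.4 and 12.8 FPKM in CUR. The ASA libraries also overlapped Model, whereas both CUR libraries were above it. Ptgs1, the constitutive enzyme, overlapped at 14.5 and 13.2 FPKM in ASA+CUR and 7.93 and 13.8 FPKM in Model, and the synthase Ptges was at 9.52 and 16.1 FPKM in ASA+CUR, against 7.33 and 8.61 FPKM in Model. Pla2g5, a secreted phospholipase that frees arachidonic acid, was at 4.26 and 5.08 FPKM in ASA+CUR, against 8.80 and 6.76 FPKM in Model. Ptges2 was at 12.7 and 13.2 FPKM in ASA+CUR, against 17.6 and 15.4 FPKM in Model. In all, 2 of 17 synthesis and breakdown genes were higher without overlap and 5 lower (median -0.039; -0.18 without ASA+CUR replicate 0 and 0.16 without ASA+CUR replicate 1). Of 6 prostaglandin receptors tested, the thromboxane receptor Tbxa2r was lower (0.381 and 0.536 FPKM in ASA+CUR and 1.04 and 1.39 FPKM in Model) and Ptger1 higher (12.7 and 12.1 FPKM in ASA+CUR and 9.53 and 11.9 FPKM in Model), and the other 4 overlapped (median 0.029; -0.25 without Model replicate 0 and 0.18 without Model replicate 1). Among 9 lipoxygenase and leukotriene genes, Alox12 was at 48.2 and 45.4 FPKM in ASA+CUR, against 11.3 and 8.63 FPKM in Model, with 41.7 and 5.81 FPKM in ASA and 8.72 and 25.0 in CUR, while Ltc4s, leukotriene C4 synthase, was at 1.64 and 0.657 FPKM in ASA+CUR, against 2.22 and 3.69 FPKM in Model. Alox5 was at 1.02 and 0.453 FPKM in ASA+CUR, against 1.05 and 2.29 FPKM in Model (median -0.26; -0.24 without ASA+CUR replicate 0 and -0.10 without ASA+CUR replicate 1).

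The NF-kB list, a pathway often linked to curcumin, had 4 higher and 4 lower of 22 tested (median -0.084; -0.14 without ASA+CUR replicate 0 and 0.058 without ASA+CUR replicate 1). The subunit gene Rel was at 6.03 and 5.29 FPKM in ASA+CUR, against 3.59 and 2.39 FPKM in Model, and Nos2, given above, was among the lower genes. Cytokines of the IL-1, TNF and IL-6 families had 5 higher and 2 lower of 17 (median 0.30; 0.040 without ASA+CUR replicate 1 and 0.49 without Model replicate 0). Il11, a stromal cytokine of injured gut, was at 25.3 and 80.1 FPKM in ASA+CUR, against 16.3 and 4.40 FPKM in Model (log2 change 2.25 ± 0.89, adjusted p = 0.484), with 53.3 and 10.6 FPKM in ASA and 34.3 and 12.6 in CUR, and Il1a was at 3.22 and 6.05 FPKM in ASA+CUR, against 2.91 and 1.45 FPKM in Model. Tnf was at 7.12 and 5.19 FPKM in ASA+CUR, against 5.11 and 4.04 FPKM in Model. Il6 overlapped at 0.998 and 4.63 FPKM in ASA+CUR and 1.64 and 0.432 FPKM in Model. Ltb, lymphotoxin beta, was at 3.63 and 3.79 FPKM in ASA+CUR, against 6.42 and 21.1 FPKM in Model. Chemokines were lower without overlap in 9 of 28 and higher in 3. Their median was -0.32 (-0.58 without Model replicate 0 and -0.10 without ASA+CUR replicate 1). Among the lower ones, Ccl6 was at 67.2 and 89.1 FPKM in ASA+CUR, against 149.7 and 196 FPKM in Model. Ccl5, which attracts T cells, was at 3.29 and 1.72 FPKM in ASA+CUR, against 5.72 and 24.5 FPKM in Model. Cxcl3, which attracts neutrophils, was among the higher ones at 8.26 and 32.3 FPKM in ASA+CUR, against 6.90 and 2.82 FPKM in Model.

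Nrf2 targets, which curcumin is often said to induce, were lower without overlap in 12 of 32 and higher in 2 (median -0.22, and -0.33 to -0.20 with 1 library left out). Nqo1, the quinone reductase, was at 16.8 and 9.08 FPKM in ASA+CUR, against 17.7 and 18.4 FPKM in Model, ASA+CUR replicate 0 being just under Model. Hmox1, haem oxygenase 1, overlapped at 55.6 and 312 FPKM in ASA+CUR and 30.2 and 109.6 FPKM in Model. Gstm3, a glutathione transferase, was at 4.43 and 2.68 FPKM in ASA+CUR, against 8.34 and 6.39 FPKM in Model. Blvrb, a biliverdin reductase, was at 67.2 and 68.1 FPKM in ASA+CUR, against 92.4 and 115 FPKM in Model. Cbr1, a carbonyl reductase, was at 88.0 and 72.3 FPKM in ASA+CUR, against 125 and 98.5 FPKM in Model. The 2 higher genes were Slc7a11, the cystine transporter (7.54 and 11.8 FPKM in ASA+CUR and 3.63 and 3.30 FPKM in Model), and Gsr, glutathione reductase (82.2 and 83.6 FPKM in ASA+CUR and 71.5 and 48.0 FPKM in Model). Metallothioneins, small metal-binding proteins, were higher without overlap in 2 of 4 (median 0.70). Mt4 was at 302 and 538 FPKM in ASA+CUR, against 103 and 143 FPKM in Model. It was at 226 and 64.0 FPKM in ASA, 134 and 739 in CUR and 0 in both Control libraries. Mt2 was at 299.6 and 277 FPKM in ASA+CUR, against 153 and 170.2 FPKM in Model. Its ASA libraries were at 275 and 110 FPKM and its CUR libraries at 192 and 324 FPKM. In both genes ASA replicate 0 exceeded ASA replicate 1 and CUR replicate 1 exceeded CUR replicate 0, as in Hoxd13.

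Interferon response genes, which defend cells against viruses, were lower without overlap in 22 of 37 tested and higher in 0; 8 were at least 2-fold lower, and the median log2 change was -0.72. Many such genes are switched on through the interferon-stimulated response element (ISRE) in their promoters. The letters GAAA, any 2 bases and GAAA again, searched as 1 motif on both strands of the 250 bases before the start site and allowing overlapping matches, were found in 15 of 28 listed genes with a promoter sequence (53.6%), against 366 of 11003 tested genes with one (3.33%). This share describes the kind of gene listed and not a difference between ASA+CUR and Model. The promoters of Ifit1, Isg15 and Irgm2, whose values follow, are shown because they hold the element in 3 arrangements (RefSeq, GRCm38.p6; capitals mark the matches). Ifit1 lies at chr19:34640639-34640888 on the plus strand, Isg15 at chr4:156200819-156201068 on the minus strand and Irgm2 at chr11:58214727-58214976 on the plus strand.
Ifit1: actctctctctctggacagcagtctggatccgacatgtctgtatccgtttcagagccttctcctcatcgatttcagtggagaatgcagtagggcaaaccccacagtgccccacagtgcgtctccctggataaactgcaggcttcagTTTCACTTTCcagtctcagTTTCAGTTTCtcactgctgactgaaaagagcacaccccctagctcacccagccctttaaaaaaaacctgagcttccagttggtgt
Isg15: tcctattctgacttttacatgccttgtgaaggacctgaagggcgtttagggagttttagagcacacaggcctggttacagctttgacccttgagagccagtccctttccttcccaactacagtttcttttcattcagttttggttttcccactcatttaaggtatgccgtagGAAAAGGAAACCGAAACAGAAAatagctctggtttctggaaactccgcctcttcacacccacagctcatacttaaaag
Irgm2: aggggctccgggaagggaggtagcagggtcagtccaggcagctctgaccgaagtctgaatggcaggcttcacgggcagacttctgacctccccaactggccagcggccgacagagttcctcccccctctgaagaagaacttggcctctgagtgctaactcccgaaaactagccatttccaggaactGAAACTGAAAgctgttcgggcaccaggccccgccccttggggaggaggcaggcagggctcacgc

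Ifit1, which binds viral RNA, holds 2 matches on the reverse strand and was at 5.82 and 4.28 FPKM in ASA+CUR, against 18.1 and 17.0 FPKM in Model (log2 change -1.63 ± 0.65, adjusted p = 0.485). Isg15, a ubiquitin-like protein, holds 3 overlapping matches and was at 19.8 and 11.5 FPKM in ASA+CUR, against 42.5 and 41.1 FPKM in Model (log2 change -1.41 ± 0.74). Irgm2, a GTPase that guards cells against parasites, holds 1 and was at 14.5 and 12.0 FPKM in ASA+CUR, against 21.3 and 24.5 FPKM in Model (log2 change -0.75 ± 0.17, adjusted p = 0.317), with 36.6 and 39.2 FPKM in ASA and 30.4 and 37.3 in CUR. In all 3 genes both ASA+CUR libraries were the lowest of the 8 AOM/DSS libraries. Irf8, a factor of myeloid cells, was at 18.0 and 13.9 FPKM in ASA+CUR, against 25.5 and 33.3 FPKM in Model. Isg15 was highest in CUR replicate 0, with 27.5 and 72.6 FPKM in ASA and 309 and 56.9 FPKM in CUR. The list's median was -1.25 without ASA+CUR replicate 0 and -0.25 without replicate 1, so the distance from Model was larger in replicate 1.

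Heat shock and unfolded protein genes, which keep other proteins folded, were lower without overlap in 18 of 21 and higher in 0 (median -0.50; -0.66 to -0.45 with 1 library left out). The inducible HSP70 genes Hspa1a and Hspa1b are near-identical copies, and together they had 11.2 and 8.11 FPKM in ASA+CUR, 7.80 and 11.9 FPKM in ASA, 7.10 and 4.96 FPKM in CUR, 59.6 and 24.1 FPKM in Model, and 32.8 and 25.2 FPKM in Control. All 6 libraries of mice on ASA or CUR were below all 4 others in this sum, and the Model mean was 4.33 times the ASA+CUR mean. Hsph1, an HSP110, was at 16.0 and 23.8 FPKM in ASA+CUR, against 65.0 and 61.2 FPKM in Model, with 16.7 and 72.4 FPKM in ASA. The constitutive Hspa8 was at 1476 and 1377 FPKM in ASA+CUR, against 2082 and 1942 FPKM in Model. Dnajb1, an HSP40, was at 30.1 and 30.5 FPKM in ASA+CUR, against 56.4 and 41.7 FPKM in Model. In the endoplasmic reticulum, Hspa5, the chaperone BiP, was at 256 and 293 FPKM in ASA+CUR, against 451 and 364 FPKM in Model. Sdf2l1 was at 24.5 and 30.0 FPKM in ASA+CUR, against 59.1 and 62.2 FPKM in Model.

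**Figure D5:**
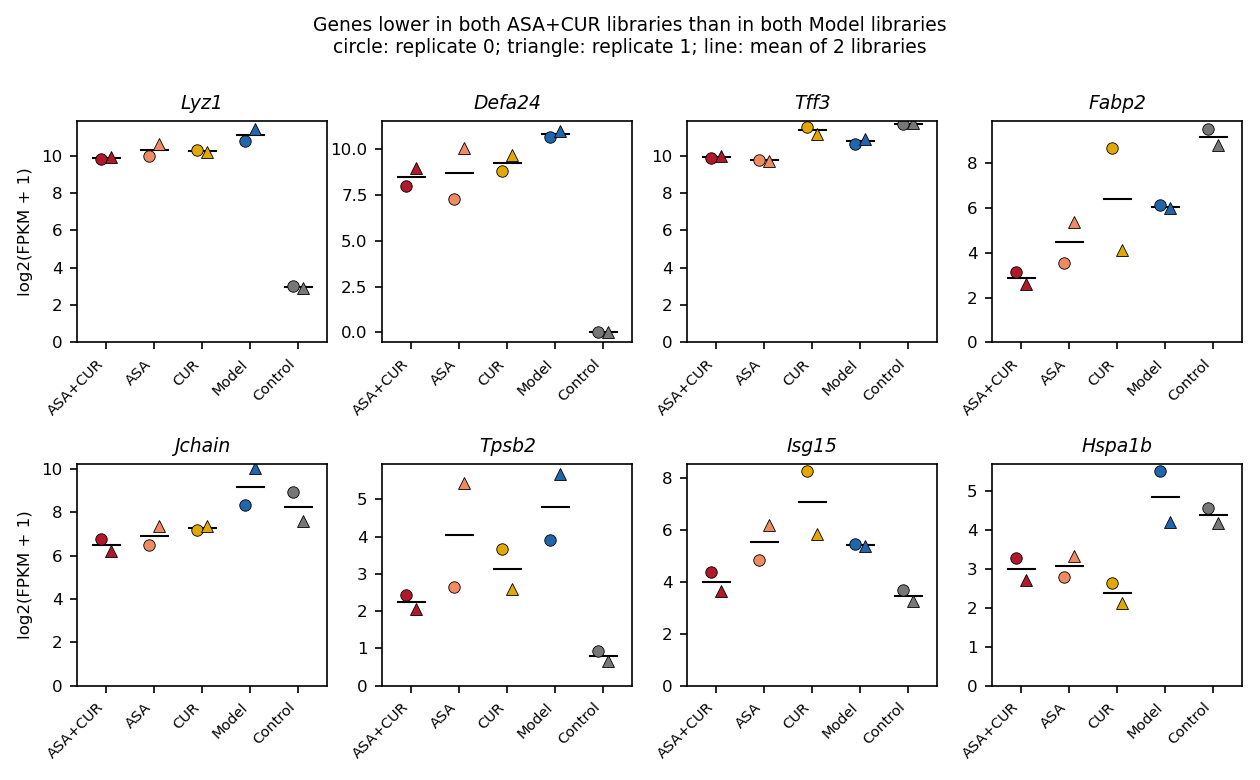
Log2(FPKM + 1) in each library for 8 genes, by group from ASA+CUR to Control, with circles for replicate 0, triangles for replicate 1 and a line at the mean of 2 libraries. Lyz1, Defa24, Tff3, Fabp2, Jchain, Tpsb2, Isg15 and Hspa1b were lower in both ASA+CUR libraries than in both Model libraries; CUR replicate 0 was highest in Isg15, and Hspa1b was low in ASA and CUR as well.

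Several lists of immune cell genes had medians below zero, and most of these moved towards zero without Model replicate 1. In whole tissue, fewer cells of a type and less RNA per cell cannot be told apart. Mast cell genes had the lowest median of all lists, -1.30, with 10 of 13 lower without overlap and 1 higher. Tpsb2, a mast cell tryptase, was at 4.45 and 3.16 FPKM in ASA+CUR, against 14.2 and 50.7 FPKM in Model (log2 change -2.56 ± 0.89, adjusted p = 0.458), with 5.30 and 42.2 FPKM in ASA and 11.6 and 5.05 in CUR. Kit, the stem cell factor receptor that pacemaker cells of the gut also carry, was at 3.99 and 3.37 FPKM in ASA+CUR, against 9.06 and 12.2 FPKM in Model. Cpa3, mast cell carboxypeptidase, was at 4.21 and 1.68 FPKM in ASA+CUR, against 9.28 and 23.8 FPKM in Model. The mast cell marker Cma1 overlapped, at 10.4 and 8.12 FPKM in ASA+CUR and 8.14 and 19.0 FPKM in Model. The 1 higher without overlap was Il1rl1, the IL-33 receptor, at 88.2 and 192 FPKM in ASA+CUR, against 61.5 and 23.3 FPKM in Model. The median of the mast cell list remained below zero whichever library was left out (-1.93 to -1.11).

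Among plasma cell genes, Jchain, the joining chain of IgA and IgM, was at 108 and 72.2 FPKM in ASA+CUR, against 323 and 1038 FPKM in Model (log2 change -2.70 ± 0.62, adjusted p = 0.323), with 87.5 and 162 FPKM in ASA, 143 and 165 in CUR and 483 and 189.7 in Control. Mzb1, a chaperone of antibody assembly, was at 6.91 and 4.88 FPKM in ASA+CUR, against 20.5 and 61.4 FPKM in Model. Xbp1, the factor behind secretory capacity, was at 108 and 109.7 FPKM in ASA+CUR, against 166 and 202 FPKM in Model. Over 16 B and plasma cell genes, 7 were lower and 2 higher without overlap (median -0.52; -0.93 without Model replicate 0 and 0.068 without Model replicate 1), and the B cell marker Cd79a overlapped at 3.73 and 6.57 FPKM in ASA+CUR and 5.57 and 21.4 FPKM in Model.

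T and NK cell genes were lower without overlap in 11 of 19 and higher in 0 (median -0.85; -0.21 without Model replicate 1 and -1.505 without Model replicate 0). Foxp3, the factor of regulatory T cells, was at 0.755 and 0.464 FPKM in ASA+CUR, against 1.33 and 4.58 FPKM in Model. Cd3g, of the T cell receptor complex, was at 1.43 and 1.03 FPKM in ASA+CUR, against 2.53 and 12.6 FPKM in Model. Icos, a costimulatory receptor, was at 0.939 and 0.692 FPKM in ASA+CUR, against 1.32 and 4.05 FPKM in Model. Model replicate 1 was the highest of the 10 libraries in all of them. Macrophage and dendritic cell genes had 4 lower and 1 higher of 23 (median -0.34; -0.84 without Model replicate 0 and 0.093 without Model replicate 1); the complement gene C1qb overlapped at 83.8 and 66.0 FPKM in ASA+CUR and 83.5 and 208 FPKM in Model. Lyz2 was at 238 and 371 FPKM in ASA+CUR, against 386 and 1046 FPKM in Model. Apoe was at 428 and 489 FPKM in ASA+CUR, against 540.1 and 1582 FPKM in Model. MHC class II genes overlapped almost throughout (1 lower and 1 higher of 13, median -0.44; -0.78 without ASA+CUR replicate 0 and -0.039 without Model replicate 1), with H2-Eb1 at 115 and 52.8 FPKM in ASA+CUR and 102 and 206 FPKM in Model. B2m, the light chain of class I, was at 576 and 247 FPKM in ASA+CUR, against 578 and 1154 FPKM in Model. For this gene ASA+CUR replicate 0 was just under Model replicate 0. Neutrophil genes had 2 higher and 1 lower of 13 (median 0.11; -0.26 without ASA+CUR replicate 1 and 0.49 without ASA+CUR replicate 0); S100a8 overlapped at 25.4 and 119 FPKM in ASA+CUR and 80.1 and 44.0 FPKM in Model. Mmp9 was at 11.1 and 13.1 FPKM in ASA+CUR, against 20.7 and 31.6 FPKM in Model.

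Smooth muscle genes were lower without overlap in 16 of 24 and higher in 1 (median -0.85; -0.94 without ASA+CUR replicate 0 and -0.52 without ASA+CUR replicate 1). Des, the muscle intermediate filament desmin, was at 27.8 and 21.2 FPKM in ASA+CUR, against 68.4 and 83.3 FPKM in Model (log2 change -1.60 ± 0.30, adjusted p = 0.287). Cnn1, calponin, was at 21.4 and 19.4 FPKM in ASA+CUR, against 47.4 and 47.2 FPKM in Model. Tagln, transgelin, was at 107 and 90.0 FPKM in ASA+CUR, against 192 and 252 FPKM in Model. Control libraries held far more, with 1451 and 851 FPKM of Des, and ASA and CUR were near ASA+CUR, with 13.9 and 17.5 and 23.6 and 34.8 FPKM. Enteric neuron and glia genes had 13 lower and 1 higher of 20 at low levels (median -0.18; -0.31 without ASA+CUR replicate 0 and -0.19 without Model replicate 0), for example Vip, a neuropeptide, at 1.12 and 0.346 FPKM in ASA+CUR, against 4.84 and 3.54 FPKM in Model. Stmn3 was at 0 and 0.0698 FPKM in ASA+CUR, against 0.540 and 0.820 FPKM in Model. Prph, peripherin, was at 0.379 and 0.168 FPKM in ASA+CUR, against 1.01 and 0.739 FPKM in Model. Adipocyte genes had 5 lower and 1 higher of 9 (median -0.47; -0.47 without ASA+CUR replicate 0 and -0.23 without Model replicate 0); the defining fat gene Adipoq was at 0 and 0 FPKM in ASA+CUR and 0.245 and 0 FPKM in Model. Fabp4, which endothelium also makes, was at 13.0 and 12.8 FPKM in ASA+CUR, against 29.1 and 108 FPKM in Model. Muscle genes moved with the group in this way, and the part of the muscle wall in the other results was not tested.

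Fibroblast and collagen genes mostly overlapped between the groups. Of 25 such genes tested, 2 were higher and 1 lower without overlap (median -0.089; -0.51 without Model replicate 0 and 0.39 without Model replicate 1). Tnc, tenascin C of wound matrix, was at 31.8 and 70.9 FPKM in ASA+CUR, against 21.8 and 25.7 FPKM in Model. Dcn, decorin, was at 298 and 275 FPKM in ASA+CUR, against 186 and 252 FPKM in Model. Lum, lumican, was at 8.70 and 5.48 FPKM in ASA+CUR, against 15.7 and 22.3 FPKM in Model. Mgp, matrix Gla protein, was at 636 and 775 FPKM in ASA+CUR, against 243 and 136 FPKM in Model, with 641 and 201 FPKM in ASA and 213 and 749 in CUR, again high in the libraries high in Hoxd13. Among 20 matrix metalloproteinases, relatives and inhibitors, 7 were higher and 4 lower (median 0.11; -0.014 without ASA+CUR replicate 1 and 0.40 without Model replicate 1). Mmp13, a collagenase, was at 68.4 and 178 FPKM in ASA+CUR, against 50.6 and 32.5 FPKM in Model. Mmp14, a membrane-bound protease, was at 150.1 and 163 FPKM in ASA+CUR, against 111 and 118 FPKM in Model (log2 change 0.45 ± 0.13). Mmp19 was at 7.66 and 23.8 FPKM in ASA+CUR, against 3.46 and 5.75 FPKM in Model. Adam8 was at 17.2 and 29.5 FPKM in ASA+CUR, against 8.97 and 11.3 FPKM in Model (log2 change 1.09 ± 0.27, adjusted p = 0.355). Endothelial genes had 4 lower and 1 higher of 18 (median -0.50; -1.16 without Model replicate 0 and 0.076 without Model replicate 1); Plvap, of fenestrated vessels, was at 35.9 and 32.6 FPKM in ASA+CUR, against 37.0 and 84.4 FPKM in Model.

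p53 targets and apoptosis genes had 5 higher and 5 lower of 28 (median 0.0051; -0.060 without Model replicate 0 and 0.082 without ASA+CUR replicate 0), with the caspase activator Apaf1 at 15.5 and 16.1 FPKM in ASA+CUR, against 13.0 and 8.38 FPKM in Model. The death receptor Fas was at 5.59 and 3.91 FPKM in ASA+CUR, against 6.41 and 7.68 FPKM in Model. Genes of DNA methylation and histone deacetylation had 7 higher and 1 lower of 19 (median 0.16; 0.046 without Model replicate 1 and 0.33 without Model replicate 0), with Dnmt3b, a methyltransferase, at 3.06 and 3.74 FPKM in ASA+CUR, against 2.19 and 1.77 FPKM in Model. Tet2, a demethylating enzyme, was at 5.28 and 4.54 FPKM in ASA+CUR, against 3.67 and 3.35 FPKM in Model. The histone demethylase Kdm1a was at 38.1 and 40.4 FPKM in ASA+CUR, against 32.5 and 27.8 FPKM in Model. Glycolysis and hypoxia genes had 7 lower and 4 higher of 31 (median -0.19; -0.33 without Model replicate 1 and -0.041 without Model replicate 0); Car9, a carbonic anhydrase of hypoxic cells, was at 18.9 and 24.6 FPKM in ASA+CUR, against 56.6 and 48.2 FPKM in Model. Ndrg1 was at 80.3 and 98.9 FPKM in ASA+CUR, against 41.7 and 53.8 FPKM in Model. Core clock genes were higher without overlap in 9 of 18 and lower in 1 (median 0.39), with the repressor Bhlhe40 at 131 and 121 FPKM in ASA+CUR, against 81.6 and 67.5 FPKM in Model (log2 change 0.76 ± 0.18, adjusted p = 0.331) and the activator Arntl at 4.98 and 7.07 FPKM in ASA+CUR, against 10.1 and 8.87 FPKM in Model; the labels give no hour of collection. Immediate early genes had 6 higher and 3 lower of 21 (median 0.075; 0.022 without Model replicate 1 and 0.12 without Model replicate 0), with Fosl1, of the AP-1 factor, at 2.29 and 3.84 FPKM in ASA+CUR, against 1.57 and 0.171 FPKM in Model. Sterol and lipid synthesis genes had 2 higher and 1 lower of 23 (median 0.11; -0.25 without Model replicate 1 and 0.40 without Model replicate 0), with the regulator Srebf2 at 81.0 and 84.4 FPKM in ASA+CUR, against 76.8 and 50.02 FPKM in Model. Of 6 haemoglobin and red cell genes, Hba-a2 alone had groups without overlap (median 0.27; -0.63 without ASA+CUR replicate 1 and 1.71 without ASA+CUR replicate 0); Hbb-bs was at 24.7 and 198 FPKM in ASA+CUR and 37.5 and 91.2 FPKM in Model, and ASA+CUR replicate 1 was the highest library in Hbb-bs and Hba-a1.

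The mixed diet was also set against each agent alone, which the mice received at a higher dose. Against ASA, 0 of 14061 genes passed (0%), with 399 at an unadjusted p under 0.05 and a smallest adjusted p of 0.277. Against CUR, 0 passed (0%), with 1944 at an unadjusted p under 0.05 and a smallest adjusted p of 0.0516 (limma, all 10 libraries). Neither count shows that the diets act alike. Over the interferon list the median log2 difference was -1.35 from ASA and -1.96 from CUR. For Irgm2 the difference was -1.46 ± 0.17 SE from ASA (adjusted p = 0.277) and -1.29 ± 0.17 from CUR (adjusted p = 0.279). Nos2 differed by -2.41 ± 0.44 from ASA (adjusted p = 1.00) and by -0.98 ± 0.44 from CUR (adjusted p = 0.363). Goblet genes were -0.25 from ASA and -1.17 from CUR in the median, and Tff3 differed by -1.45 ± 0.22 from CUR (adjusted p = 0.2799). The heat shock median difference was -0.15 from ASA and 0.014 from CUR.

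Each diet's own distance from Model, with the Model libraries shared, is given side by side. The interferon median was -0.72 for ASA+CUR, 0.42 for ASA and 1.15 for CUR. The Paneth median was -1.22, -0.65 and -0.55 for ASA+CUR, ASA and CUR, the smooth muscle median -0.85, -0.76 and -0.76, and the heat shock median -0.50, -0.33 and -0.52. The goblet median was -0.83 for ASA+CUR and -0.66 for ASA, but 0.27 for CUR. By library, the mean log2(FPKM + 1) of Paneth genes overlapped between ASA (6.33 and 7.56) and Model (7.66 and 7.203). That of goblet genes overlapped between CUR (7.73 and 7.14) and Model (7.26 and 7.04). The ASA Paneth median and the CUR goblet median therefore do not set those diets apart from Model. The other pairings of list and diet given here did not overlap Model in this mean. The side of zero on which Model itself stood relative to Control differed among these lists. In the median, Paneth and antimicrobial genes were 3.74 and interferon genes 1.15 in Model minus Control, whereas goblet genes were -1.59 and smooth muscle genes -2.37. The first of these medians includes alpha-defensins at 0 in Control. The summed FPKM of the same list was 15219 and 16017 in Model, against 61898 and 15713 in Control.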

How the data were processed

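RNA-seq of mouse colon was deposited as 1 table of transcript FPKM in 10 libraries. Per the submitters' processing notes the authors worked on mm10 (GRCm38) with Cuffdiff, TopHat2 2.0.9, bcl2fastq 2.17.1.14 and Bowtie2 2.1.0.0; the deposited FPKM are normalised for transcript length and library size by the authors. FPKM keep no read counts: whole reads could not be recovered, so depth, counting intervals and count tests are not given.

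Of 30073 transcript rows, 29439 were matched to RefSeq and 183 to GENCODE names, and FPKM were summed per gene. The 14061 genes that reached 1 FPKM in 2 or more libraries entered limma 3.58.1 (R 4.3.3) as log2(FPKM + 1) values (intensity trend, 5 residual degrees of freedom from all 10 libraries in 5 groups, two-sided, Benjamini-Hochberg over all genes, threshold 0.05). The procedure was also run on simulated data whose noise was drawn separately for each gene. Such data hold no shifts shared by many genes of a library, so that run could not test for them. Fold changes on this scale understate those of low genes. No overlap means that both libraries of a group lie above, or below, both of the other.

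Members and lists were chosen with earlier results of these data known. Named genes were the 20 of smallest p, up to 3 of smallest p in each of 45 lists, 10 fixed genes and the 10 most abundant with no overlap and a 2-fold difference; any other named gene was chosen after its values were seen. Some genes that these rules name are not reported here. Alternatives in pseudocount, filter, scaling, libraries, variance model, feature and pairing are in the closing section. The replicate libraries may not be separate mice, and p-values then measure only the spread between these libraries.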

Additional observations from a re-analysis of the deposited data

How the results depend on the processing

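Against Model, the 2 genes called stayed 2 under the scaling, pseudocount, filter and variance alternatives tried, with Uts2 in place of Hba-a2 under no filter. The count was 4 with only the 4 libraries compared (1 higher and 3 lower, B4galnt2, Cdx2, Snora15 and Snora70), 0 with the 8 AOM/DSS libraries, 0 of 17166 with transcripts in place of gene sums, and 0 with the replicate number as a block; it was between 0 and 1 when 1 library was left out. The counts against ASA and against CUR were 0, and 0 to 1 with 1 library left out. Whether replicate numbers pair the libraries is not known from the labels. The correlation of the libraries' deviations was -0.005 between ASA+CUR and Model. Over all pairs of groups it was -0.214 to 0.326, the highest being that of ASA+CUR with ASA. Scaling moved the median of all genes by under 0.1.

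Median log2 changes of lists moved with a pseudocount of 0.1 (Carboxylesterases -0.90, Tuft cell genes -0.92, Enteric neuron and glia genes -0.89, Adipocyte genes -0.89, Mast cell genes -2.50, PPAR targets, ketogenesis and fatty acid oxidation -0.37) or 0.5 (Enteric neuron and glia genes -0.30, Mast cell genes -1.69), with no filter beyond a value above 0 (Tuft cell genes -0.29, Adipocyte genes -0.18), with a mean of at least 1 FPKM (Enteric neuron and glia genes -0.63, Mast cell genes -1.61), with a filter on the 4 libraries compared (Enteric neuron and glia genes -0.89, Adipocyte genes -1.07, Mast cell genes -1.92) and with quantile normalization (Prostaglandin synthesis and breakdown 0.15, Nrf2 targets -0.13, Enteric neuron and glia genes -0.12); the cause was not tested. With 1 library left out, medians moved by more than the spread between replicates in these lists and ranged as follows: Prostaglandin synthesis and breakdown -0.18 to 0.16, Prostaglandin receptors -0.25 to 0.18, NF-kB subunits, feedback inhibitors and targets -0.14 to 0.058, Cytokines of the IL-1, TNF and IL-6 families 0.040 to 0.49, Nrf2 targets -0.33 to -0.20, Heat shock and unfolded protein genes -0.66 to -0.45, Intestinal stem and regenerative epithelium genes -0.074 to 0.56, DNA methylation and class I HDAC genes 0.046 to 0.33, Tuft cell genes -0.65 to -0.26, Smooth muscle genes -0.94 to -0.52, Enteric neuron and glia genes -0.31 to -0.19, Adipocyte genes -0.47 to -0.23, Neutrophil genes -0.26 to 0.49, Mast cell genes -1.93 to -1.11, PPAR targets, ketogenesis and fatty acid oxidation -0.31 to -0.13. Other medians moved by over 1.5 times within that spread, as given beside their counts. Of 45 list medians, 16 changed sign under at least 1 alternative.

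Of 184 gene changes followed, the direction turned in those listed here, whose groups all overlapped. Epcam was 0.20 under quantile normalization. With 1 library left out, log2 changes ranged as follows: Egfr -0.15 to 0.32, Epcam -0.25 to 0.058, Hba-a1 -1.56 to 1.83, Hbb-bs -1.21 to 1.74, Hmox1 -0.054 to 2.41, Hoxa13 -0.0017 to 0.16, Krt5 -1.75 to 5.89, Lgr5 -0.074 to 0.70, Mki67 -0.0097 to 0.81, Ptgs1 -0.00068 to 0.73, S100a8 -1.19 to 0.98, Trp63 -0.17 to 2.44. FPKM values keep no read depth, so counting error cannot be given, and 2 libraries a group limit every comparison.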
